A study of Mus musculus with 10 samples.

Results

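The unfolded protein response and endoplasmic reticulum (ER) folding genes were followed in mouse enamel organ, in 10 RNA-seq libraries, through a list of 36 genes matched by gene symbol. All 36 were listed in the ameloblast table, among 16292 genes, and 35 in the stratum intermedium table, among 16638 genes, where Derl3 was not listed. By role the list held 15 chaperones and folding enzymes, 7 genes of ER-associated degradation, 4 sensors and transcription factors of the response, 4 genes of the translocon and 6 stress genes of the ATF4 and CHOP arm. Ameloblasts, the columnar cells that secrete the enamel matrix, and stratum intermedium, the thin layer behind them, were laser-captured from frozen sections of hemi-mandibles. Each layer had 3 libraries of mice knockout (KO) for claudin-10, a claudin of tight junctions, and 2 libraries of wild-type (WT) mice. The names of the libraries carry the prefixes KO1, KO3, KO9, WT5 and WT10 in both layers, and these prefixes name the libraries here. The sources used here do not say whether a prefix is a mouse, nor the age, strain, stage of enamel formation or deleted part of the gene. P-values therefore measure the spread between these libraries, which may in part be technical.

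Secreted and membrane proteins enter the ER through the translocon and are folded there by chaperones such as BiP (Hspa5) and by disulfide isomerases, and misfolded chains are sent back to the cytosol for degradation. When folding capacity falls short, the sensors IRE1 (Ern1), ATF6 and PERK (Eif2ak3) start the unfolded protein response. IRE1 splices Xbp1 mRNA and ATF6 is cleaved into a transcription factor, and both raise chaperone and degradation genes through ER stress response elements. PERK phosphorylates eIF2alpha, which slows translation and favours ATF4, whose targets include CHOP (Ddit3), Trib3, Asns and Chac1. Secretory ameloblasts export large amounts of amelogenin (Amelx), and amelogenin mutations that block export are known to activate the response in mice.

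The promoters of the chaperones and the stress genes were searched for elements already known to control genes of these classes. The counts below therefore describe the promoters and are no independent result. Promoter windows of RefSeq (GRCm38.p6, from 250 bases before to 50 bases after the start of the gene) were found for 30 of the 36 genes, in 31 windows. The ER stress response element was searched as CCAAT and CCACG with 9 bases of any letter between them, on both strands, and was found in 9 of the 30 genes, against 0.137% of 27025 genes and 0.119% of 32851 windows. These were 7 of 13 chaperones with a window, Hspa5, Hsp90b1, Pdia6, Calr, Canx, Dnajc3 and Creld2, and the degradation genes Derl3 and Syvn1. None of the 6 stress genes had it. A second form, ERSE-II, searched as ATTGG and CCACG with 1 base between them, was found in Dnajb11 and Herpud1 and in 0.0365% of all windows. An element bound by ATF4 with C/EBP partners, searched as TGATGNAA, was found in the stress genes Asns, Chac1 and Trib3 and in Herpud1, against 3.97% of all windows, and in none of the 13 chaperones. The element TGACGTGG, a UPRE core, was found in none of the 30 genes and in 0.676% of all windows. No 2 matched elements overlapped.

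The windows before the start are shown for BiP and for the 4 chaperones whose KO ameloblast libraries all lay above both WT libraries, each 250 bases long and written along the strand of the gene. Capitals mark the ER stress response element, which reads as its reverse complement where the capitals start with CGTGG.
Hspa5 (chr2:34771840-34772089, plus strand): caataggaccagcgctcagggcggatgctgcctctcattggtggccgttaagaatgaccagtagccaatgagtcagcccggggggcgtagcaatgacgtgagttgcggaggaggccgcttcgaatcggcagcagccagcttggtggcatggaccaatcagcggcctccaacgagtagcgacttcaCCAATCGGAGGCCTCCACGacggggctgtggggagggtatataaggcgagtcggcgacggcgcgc
Hsp90b1 (chr10:86705445-86705694, minus strand): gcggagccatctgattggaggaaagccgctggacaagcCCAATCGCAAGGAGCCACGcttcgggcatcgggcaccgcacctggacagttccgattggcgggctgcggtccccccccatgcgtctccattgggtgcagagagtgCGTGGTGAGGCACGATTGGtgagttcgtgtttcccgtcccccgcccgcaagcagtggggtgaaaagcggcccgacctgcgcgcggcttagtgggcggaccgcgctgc
Pdia6 (chr12:17266339-17266588, plus strand): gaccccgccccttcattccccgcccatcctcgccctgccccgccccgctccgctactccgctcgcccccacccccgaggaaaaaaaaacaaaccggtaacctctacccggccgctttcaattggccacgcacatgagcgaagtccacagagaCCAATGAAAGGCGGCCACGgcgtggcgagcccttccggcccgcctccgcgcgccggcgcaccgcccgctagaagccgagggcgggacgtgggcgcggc
Canx (chr11:50325674-50325923, minus strand): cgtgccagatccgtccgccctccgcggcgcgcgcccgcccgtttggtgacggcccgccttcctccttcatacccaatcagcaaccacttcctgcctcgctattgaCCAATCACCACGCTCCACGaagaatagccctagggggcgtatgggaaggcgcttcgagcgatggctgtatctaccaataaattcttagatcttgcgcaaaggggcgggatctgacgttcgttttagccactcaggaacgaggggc
Creld2 (chr15:88819396-88819645, plus strand): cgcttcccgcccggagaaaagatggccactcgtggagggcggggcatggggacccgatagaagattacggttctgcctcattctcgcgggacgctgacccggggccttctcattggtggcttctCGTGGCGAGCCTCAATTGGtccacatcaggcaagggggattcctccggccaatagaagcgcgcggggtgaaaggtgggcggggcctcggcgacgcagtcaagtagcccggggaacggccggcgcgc
For contrast, 2 stress genes are shown in the same way, with the ATF4 element in capitals, which is its reverse complement in Chac1.
Asns (chr6:7693210-7693459, minus strand): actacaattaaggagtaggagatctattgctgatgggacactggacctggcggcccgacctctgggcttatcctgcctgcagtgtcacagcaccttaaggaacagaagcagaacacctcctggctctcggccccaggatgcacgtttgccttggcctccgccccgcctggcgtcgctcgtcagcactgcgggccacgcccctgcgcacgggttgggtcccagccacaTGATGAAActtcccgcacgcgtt
Chac1 (chr2:119350992-119351241, plus strand): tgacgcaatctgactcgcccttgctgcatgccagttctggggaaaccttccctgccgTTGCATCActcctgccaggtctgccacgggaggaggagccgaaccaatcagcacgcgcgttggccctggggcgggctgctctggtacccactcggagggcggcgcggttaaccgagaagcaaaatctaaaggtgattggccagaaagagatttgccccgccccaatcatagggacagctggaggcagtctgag
The other members with an ER stress response element of either form are given by the element in capitals with its flanks, and the coordinates are those of the capitals.
Calr (chr8:84847075-84847093): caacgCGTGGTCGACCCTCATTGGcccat
Dnajc3 (chr14:118937827-118937845): cacaaCCAATCAGCGCCAACCACGacccg
Derl3 (chr10:75893242-75893260): tctacCGTGGGACTTCCCCATTGGctagc
Syvn1 (chr19:6046532-6046550): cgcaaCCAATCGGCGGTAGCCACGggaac
Dnajb11 (chr16:22857852-22857862): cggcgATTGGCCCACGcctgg
Herpud1 (chr8:94386377-94386387): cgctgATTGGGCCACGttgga
These matches describe letters in a fixed window and say nothing of binding. The median log2 difference KO minus WT in ameloblasts was 0.51 over the 9 genes with the first form of the element. With Derl3 left out it was 0.46 over the 8. It was 0.32 over the 21 genes without that form, which include Dnajb11, Herpud1 and all 6 stress genes. In stratum intermedium, where Derl3 was not listed, it was 0.03 over the 8 and -0.03 over the 21. The median log2 ratio of library shares, ameloblast over stratum intermedium, went the other way, at 0.31 over the 8 and 0.44 over the 21. Role class and element were not separated in these medians.

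The values deposited are normalized counts per gene, which summed to 21006977 to 26856177 per library, and the sequencing depth behind them is unknown. Cldn10 checked the labels: it stood at 280.1, 407.8 and 148.7 in KO ameloblast libraries (KO1, KO3, KO9), against 751.8 and 600.1 in WT (WT5, WT10), and at 1003, 387.1 and 464.7 in KO stratum intermedium, against 2365 and 7257 in WT. Within each layer every KO value lay below both WT values. Xist was high in the libraries of KO1 and KO3 and low in the others, while Ddx3y, a Y-linked gene, was at 0 there, so KO9 was the only KO prefix of the sex of both WT prefixes. The share of Amelx was 1.75% to 6.35% in ameloblasts and 0.0781% to 0.691% in stratum intermedium, so both captures held ameloblast transcripts. Odontoblast and pulp markers took 3.26% to 4.76% of KO and 4.01% to 5.79% of WT ameloblast libraries. In that list 2 of 6, Dspp and Dmp1, averaged higher in KO and 4 lower. Osteoblast markers took 1.16% to 1.85% of KO and 1.06% to 2.35% of WT ameloblast libraries. Of 6 markers of plasma and B cells, 4 were not listed there, Jchain, Mzb1, Cd79a and Pou2af1. In such bulk captures fewer cells of a type and less RNA per cell cannot be told apart.

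Per length of transcript, the folding enzymes were the most abundant members and most sensors were among the least. In ameloblasts Pdia3, the disulfide isomerase that works with the lectin chaperones, had the highest median over 5 libraries, 1991 parts per 1000000 of the library after each value was divided by exon length. It was followed by P4hb, a disulfide isomerase, at 1181, and Ssr2, a subunit of the translocon-associated protein complex, at 1017. BiP stood at 726, calnexin (Canx) at 683, calreticulin (Calr) at 610 and GRP94 (Hsp90b1) at 593, and the ranges of these 4 over the libraries overlapped. Xbp1 was the most abundant of the 4 sensors and transcription factors, at 320, against 14.2 for Atf6, 13.1 for Eif2ak3 and 6.3 for Ern1. Of the stress genes, Asns stood at 120 and Atf4 at 104, with Ppp1r15a at 37.8, Ddit3 at 17.9, Chac1 at 9.74 and Trib3 at 1.73. The lowest members were Hyou1, the ER chaperone GRP170, at 1.72 and Derl3 at 0.788. In stratum intermedium Pdia3, P4hb and Ssr2 again came first, at 1178, 975 and 780.

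All 15 chaperones and folding enzymes averaged higher in KO than in WT ameloblasts on the log2 scale, but no difference passed the test. Their differences on the log2(value + 1) scale ran from 0.17 to 0.82 with a median of 0.52, while the median over all 16212 genes tested was 0.04 and 53% of all genes were above 0. With limma, 0 of the 36 members and 0 of all genes (0%) passed an adjusted p of 0.05, with 0.989 as the smallest. At an unadjusted p under 0.05, 2 members were higher and 0 lower, against 2.25% and 0.82% of all genes. In 4 of 15 chaperones, Hsp90b1, Pdia6, Canx and Creld2, every KO library lay above both WT libraries, as it did in 9.09% of all genes. The KO1 library carried much of the class difference. Without it the median was 0.20 with 12 of 15 higher, and without KO9 it was 0.83. The library names also end in a group number with no explanation in the labels, which KO1 shares with no other prefix. A block on that number therefore repeats the differences of the fit without KO1, 0.20 with 12 of 15 higher. Leaving out WT5 or WT10 gave 0.44 or 0.61, the second with 14 of 15 higher. A fit with sex as a covariate, in which only KO9 sets KO against WT, gave a median of -0.05 with 7 of 15 higher, and there sex and the choice of that library cannot be told apart.

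The library values show the same split among the KO libraries. Hspa5, which encodes BiP, the main Hsp70 chaperone of the ER and a brake on all 3 sensors, stood at 50565, 34799 and 24616 normalized counts in KO1, KO3 and KO9, against 23017 and 30095 in WT5 and WT10 (log2 difference 0.42, SE 0.35). KO1 and KO3 were above both WT libraries and KO9 lay between them. Hsp90b1, the ER Hsp90 chaperone, stood at 34269, 27357 and 20087 in KO, against 19198 and 18183 in WT (0.51, SE 0.29). KO9 was above WT5 by a small margin, so the groups did not overlap. Canx, the membrane lectin chaperone of glycoproteins, stood at 38414, 34043 and 26921 in KO, against 17826 and 22974 in WT (0.70, SE 0.27, unadjusted p = 0.037 and adjusted p = 0.989 in limma). It had the smallest unadjusted p of the class and clear space between the groups.

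Pdia6, a disulfide isomerase that also acts on IRE1, stood at 38862, 24618 and 18451 in KO ameloblasts, against 15282 and 15782 in WT (0.75, SE 0.34). The WT libraries were close together and the lowest KO library was above both. Creld2, a secreted and ER-resident protein that ER stress induces, stood at 3171, 2251 and 1650 in KO, against 1464 and 1436 in WT (0.65, SE 0.31), again with no overlap. Pdia4, a further disulfide isomerase, had the largest difference of the class, 0.82 (SE 0.43), at 13392, 7108 and 4649 in KO, against 3968 and 4683 in WT. KO9 lay just under WT10, so the groups overlapped. The other 9 differences were 0.71 for Pdia3, 0.52 for P4hb, 0.37 for Calr, 0.54 for Dnajb11, 0.17 for Dnajb9, 0.33 for Dnajc3, 0.62 for Sdf2l1, 0.30 for Manf and 0.51 for Hyou1, with overlapping groups in each. Dnajb9, Dnajb11 and Dnajc3 are J-domain partners of BiP, Sdf2l1 acts with Dnajb11, and Manf is a secreted regulator of BiP. Dnajc3 lies near Cldn10 on chromosome 14 (118937976 to 118981697 in GRCm38), and stood at 6081, 4673 and 4714 in KO, against 3556 and 4691 in WT.

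**Figure D1:**
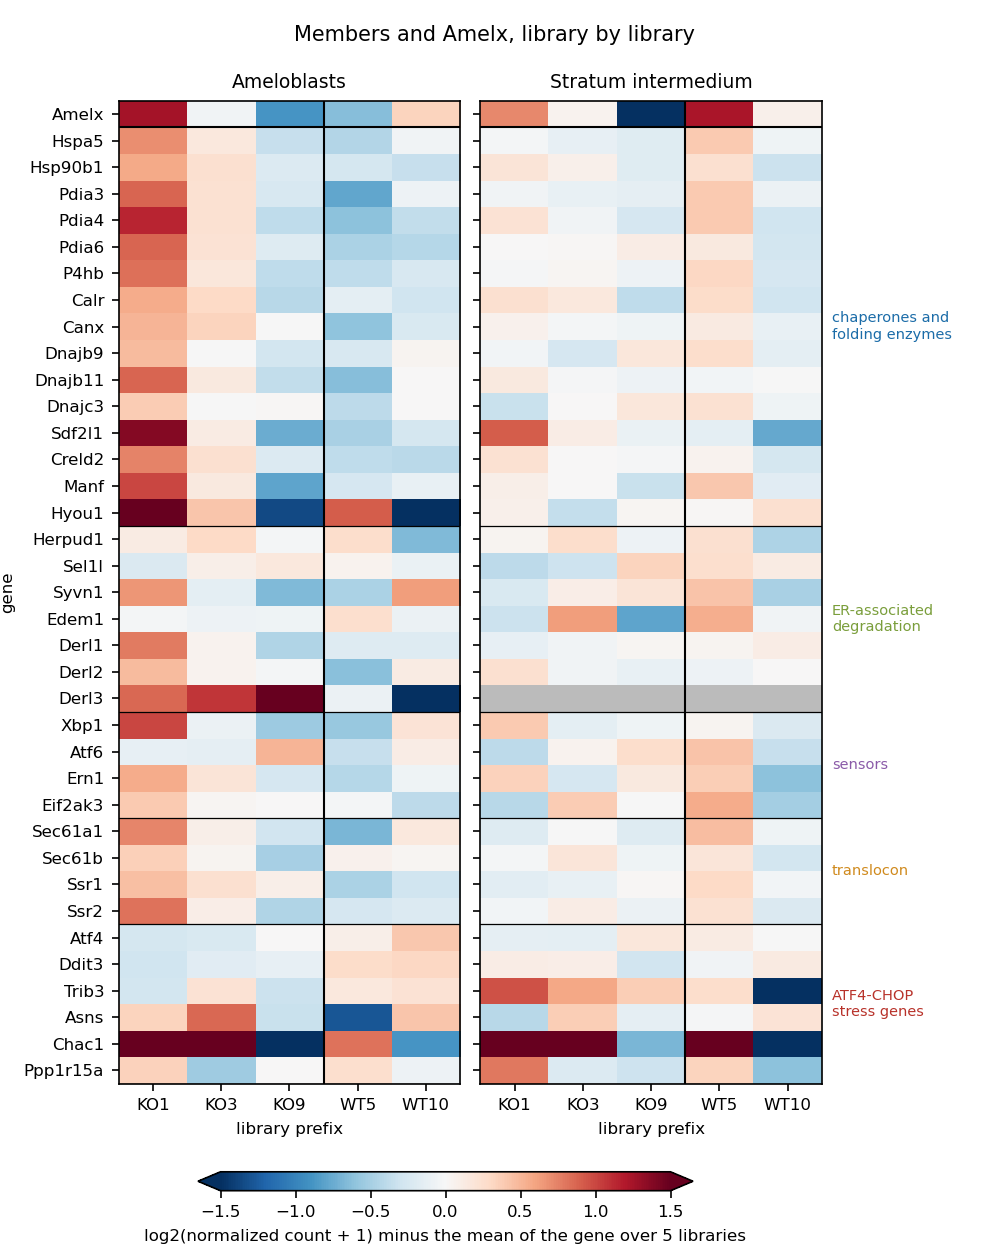
Heat map of each member and of Amelx (rows) in each library (columns, KO1, KO3 and KO9 left of the line and WT5 and WT10 right of it), for ameloblasts (left) and stratum intermedium (right); colour gives log2(normalized count + 1) minus the mean of the gene over the 5 libraries, and grey marks Derl3, not listed in stratum intermedium. All 15 chaperones are highest in KO1 in ameloblasts, while in stratum intermedium 11 of 15 are highest in WT5.

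Genes of ER-associated degradation were mixed. In KO ameloblasts 5 of 7 averaged higher, with a median log2 difference of 0.32, and the list's smallest adjusted p was 0.989 in limma. Derl3, a derlin of secretory cells, was near the floor of the table, at 17.5, 20.4 and 27.8 in KO, against 8.54 and a listed 0 in WT (log2 2.87, SE 1.41). Genes were listed where at least 3 libraries reached 10, which Derl3 did in KO alone, so the listing itself favoured its direction and its lack of overlap. Without it, under a filter on a mean of 50, the class median was 0.18 with 4 of 6 higher. The class median was also 0.15 without KO1 and 0.11 without WT5, and 0.16 with sex as a covariate. Derl2, which forms part of the retrotranslocation channel, stood at 3651, 2728 and 2584 in KO, against 1708 and 2865 in WT (0.42, SE 0.30), with overlap. Derl1 and Herpud1, a scaffold of the degradation complex, differed by 0.32 each. Sel1l, the partner of the ubiquitin ligase Hrd1, was level between the genotypes (0.03, SE 0.23), and the ligase gene itself, Syvn1, stood at -0.13 (SE 0.48). Edem1, which directs misfolded glycoproteins to degradation, differed by -0.14 (SE 0.25). Derl2 has an exon overlap of 231 bases with Mis12 on the other strand, and the sources used here do not say whether reads were counted by strand.

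All 4 sensors and transcription factors averaged higher in KO ameloblasts, by 0.20 to 0.41 on the log2 scale, with a median of 0.33. Without WT5 the median was 0.10 with 2 of 4 higher, without KO1 it was 0.22 with 3 of 4, without KO9 0.52 with 3 of 4, and with sex as a covariate 0.11 with 2 of 4. Xbp1 stood at 20422, 9606 and 6988 in KO, against 6879 and 11792 in WT (0.30, SE 0.48). Only KO1 was above both WT libraries, and the values sum spliced and unspliced forms, which the tables do not separate. Ern1 stood at 754.6, 585.8 and 432.4 in KO, against 383.3 and 490.1 in WT (0.41, SE 0.34), with KO9 between the WT libraries. Eif2ak3 stood at 937.7, 728.1 and 721.5 in KO, against 698.8 and 546.4 in WT (0.35, SE 0.28). It was the single gene of the class with every KO library above both WT libraries, as in 9.09% of all genes. Atf6 differed by 0.20 (SE 0.30) and was highest in KO9.

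Of the 4 translocon genes, 3 averaged higher in KO ameloblasts, with a median log2 difference of 0.41. The median was 0.11 without KO1, 0.19 without WT5 and 0.68 without KO9, and -0.13 with 1 of 4 higher in the fit with sex as a covariate. Ssr1, the alpha subunit of the translocon-associated protein complex, had the smallest unadjusted p of all members, 0.0286, with an adjusted p of 0.989 in limma. It stood at 28176, 24341 and 21802 in KO, against 14834 and 16672 in WT (log2 0.65, SE 0.24). Every KO library was above both WT libraries, as in 9.09% of all genes. Sec61a1, the channel itself, stood at 28636, 18355 and 14139 in KO, against 10758 and 19323 in WT (0.44, SE 0.39). WT10 lay above KO3 and KO9 there, and Sec61a1 shares 549 exon bases with an antisense gene. Ssr2 differed by 0.38 (SE 0.38) and Sec61b, a small channel subunit, by -0.08 (SE 0.29).

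The stress genes did not follow the chaperones in ameloblasts. Of 6, 2 averaged higher and 4 lower in KO, against 53% and 47% of all genes, with a median of -0.23 log2 units and none at an unadjusted p under 0.05. Leaving out a library gave medians from -0.43 (without KO3) to -0.20 (without KO9), and without KO1 it was -0.36. Atf4, the transcription factor of the arm, stood at 1836, 1886 and 2220 in KO, against 2357 and 2926 in WT (-0.41, SE 0.23). Ddit3, which encodes CHOP, stood at 228.0, 248.2 and 257.2 in KO, against 337.4 and 347.7 in WT (-0.49, SE 0.32). In both genes every KO library lay below both WT libraries, as in 9.26% of all genes, and no other member did so. Ddit3 shares 68 exon bases with Mars, on the other strand.

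Targets of ATF4 within the class went different ways. Asns, asparagine synthetase, stood at 3647, 5256 and 2304 in KO ameloblasts, against 1190 and 3877 in WT (0.72, SE 0.55). The difference rested on WT5, and without it the value was -0.13. Trib3, a pseudokinase induced by ATF4 and CHOP, was low throughout, at 26, 37 and 25.2 in KO, against 35.4 and 37 in WT (-0.31, SE 0.72). Chac1, which degrades glutathione, stood at 541.9, 404.9 and 2.2 in KO, against 153.6 and 46.3 in WT (0.06, SE 2.13). It ran over 2 orders of magnitude within KO and was lowest in KO9. Ppp1r15a, GADD34, which directs the phosphatase of eIF2alpha, differed by -0.15 (SE 0.32) with overlap.

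**Figure D2:**
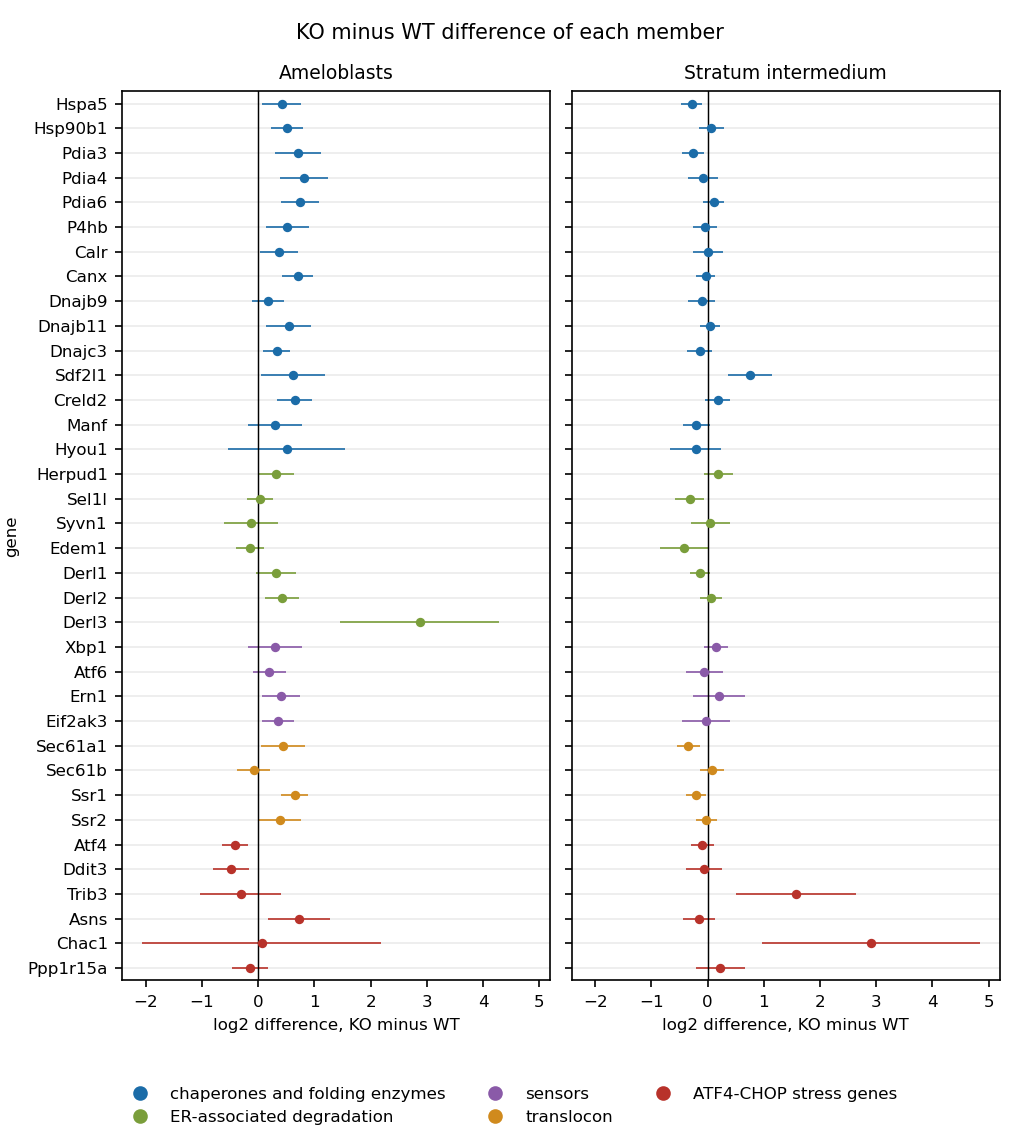
Log2 difference KO minus WT of each member (points) with its standard error from limma (bars), for ameloblasts (left) and stratum intermedium (right), coloured by role. In ameloblasts the 15 chaperones lie between 0.17 and 0.82 and Atf4 and Ddit3 lie at -0.41 and -0.49, while in stratum intermedium the chaperones lie between -0.28 and 0.76 around a median of -0.04.

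The chaperones of ameloblasts were highest in the library with the most Amelx and followed Amelx among the KO libraries, but most were not lowest in the library with the least. Amelx stood at 1704036, 691203 and 387348 normalized counts in KO1, KO3 and KO9, against 460452 and 905195 in WT5 and WT10 (log2 difference 0.25, SE 0.72). KO1 was the highest library and KO9 the lowest, with both WT libraries inside the KO range. All 15 chaperones were highest in KO1, the library with the most Amelx, as were 22.1% of all genes. In 14 of 15 the KO libraries followed the order of Amelx, KO1 above KO3 above KO9, as in 22.8% of all genes. In 11 of 15 WT10 was above WT5, as Amelx was, against 48.5% of all genes, and 10 of 15 followed both orders, against 12.7%. In 4 of 15 KO9 was the lowest library, as for Amelx, against 20.8% of all genes. With values rescaled to a common library total, 14 of 15 were highest in KO1, against 12.6% of all genes, and 13 of 15 followed the KO order, against 13.8%. All 4 translocon genes and 3 of 4 sensors were also highest in KO1. Of the 6 stress genes, 2 were highest in KO1 and 1 followed the KO order, and 0 followed both orders.

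As a class, the geometric mean of the 15 chaperones was 13106, 8447 and 5614 in KO1, KO3 and KO9, against 5803 and 6048 in WT5 and WT10. KO9 lay below both WT libraries, and WT10, with more Amelx than KO3, had fewer chaperone transcripts than KO3. The 6 stress genes had geometric means of 549.3, 542.4 and 217.6 in KO, against 428.2 and 431.9 in WT. Chac1 weighed on these means in both directions. It lowered KO9, at 2.2, and raised KO1 and KO3, at 541.9 and 404.9, against 153.6 and 46.3 in WT5 and WT10. With log2 Amelx as a covariate the median difference of the chaperones was 0.39, with 15 of 15 above 0, and that of the stress genes was -0.36. With 5 libraries a layer no correlation was computed. Among the marker lists given next, the summed shares of stratum intermedium and red blood cell markers did not overlap between KO and WT. Those of secretory and osteoclast markers did. The 6 secretory ameloblast markers together took 10.3%, 4.42% and 2.72% of KO1, KO3 and KO9, against 2.91% and 5.7% of WT5 and WT10. The 6 stratum intermedium markers took 0.121% to 0.184% of KO, against 0.0735% to 0.0888% of WT, with 6 of 6 higher in KO. As a share of the library, 1 of these 6 was lower in ameloblasts than in stratum intermedium in all 5 prefixes and 1 was higher. They were thus not all markers of stratum intermedium in these libraries. The 7 osteoclast markers took 0.102% to 0.452%, against 0.346% to 0.756%, and the 5 red blood cell markers 0.0814% to 0.144%, against 0.244% to 1.28%. The part of these cells in the chaperone difference was not tested.

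**Figure D3:**
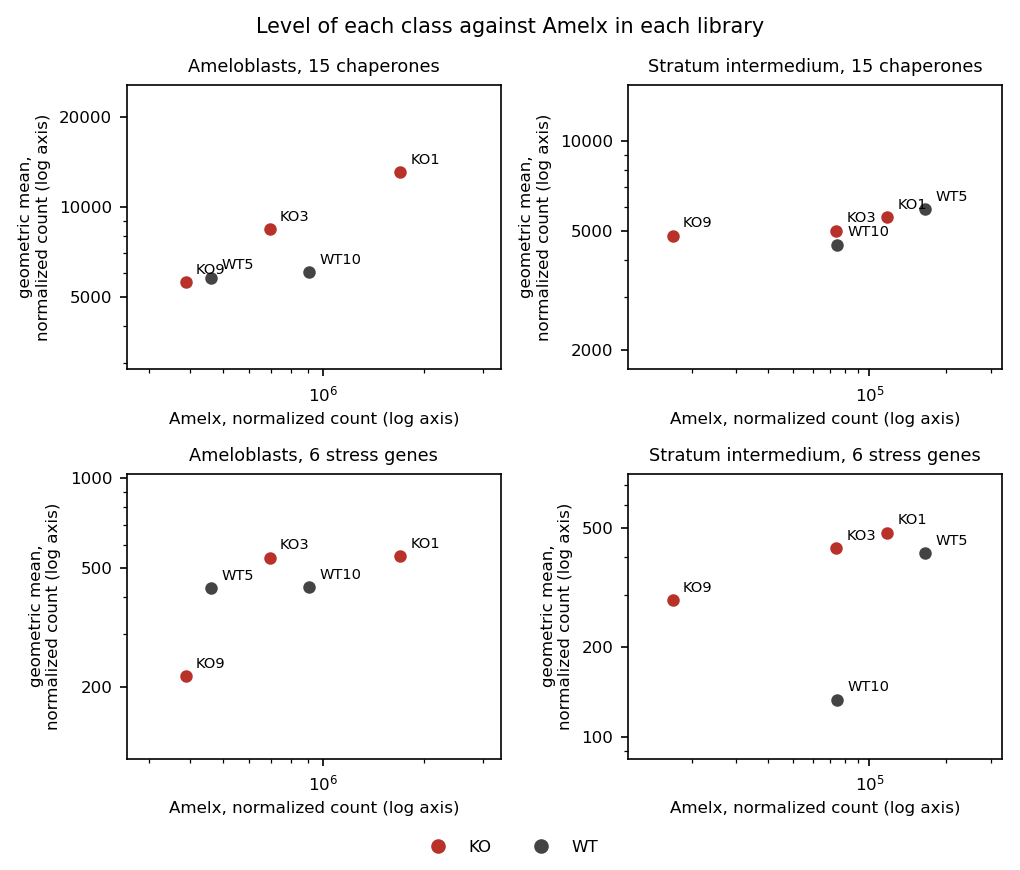
Geometric mean of the 15 chaperones (top) and the 6 stress genes (bottom) against Amelx in each library, in normalized counts on log axes, for ameloblasts (left) and stratum intermedium (right); red points are KO and grey points WT. In ameloblasts the chaperone mean is 13106 in KO1, the library with the most Amelx, and 5614 in KO9, the library with the least. The stress genes are at 549.3 and 542.4 in KO1 and KO3, where Chac1 was also highest.

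In stratum intermedium the chaperones did not share a direction. Of 15, 6 averaged higher and 9 lower in KO, with a median of -0.04 log2 units, and over all 35 members 15 were higher and 20 lower, against 51.9% and 48.1% of all genes. With limma 0 of 35 members and 0 of 16543 genes (0%) passed an adjusted p of 0.05, with 1 as the smallest over the members. At an unadjusted p under 0.05 there were 0 members, against 1.27% of all genes higher and 0.786% lower. The median turned with the WT library left out: it was 0.11 with 12 of 15 higher without WT5, and -0.27 with 3 of 15 higher without WT10. The 6 secretory markers took 0.962%, 0.619% and 0.16% of KO1, KO3 and KO9 there, against 1.09% and 0.643% of WT5 and WT10, and 6 of 6 were lower in KO. The part of carried ameloblast transcripts in these values was not tested.

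Hspa5 stood at 21800, 20544 and 19644 in KO stratum intermedium, against 29310 and 21322 in WT (-0.28, SE 0.19), with WT5 apart from the other 4 libraries. Hsp90b1 stood at 22099, 20299 and 16944 in KO, against 22700 and 15421 in WT (0.07, SE 0.23), inside the WT range. Sdf2l1 had the largest difference of the class, 0.76 (SE 0.39, adjusted p = 1 in limma), at 1041, 601.4 and 517.7 in KO, against 501.8 and 327.7 in WT. It was 1 of 2 members whose KO libraries all lay above both WT libraries, as in 7.76% of all genes, and the other was Trib3. Derl1 was the single member with every KO library below, at 2186, 2294 and 2435 in KO, against 2450 and 2581 in WT (-0.13, SE 0.18), as in 7.44% of all genes. Its lowest WT and highest KO values differed by little.

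Among the degradation genes, Sel1l stood at 1536, 1632 and 2543 in KO stratum intermedium, against 2414 and 2207 in WT (-0.32, SE 0.26). KO1 and KO3 were low and KO9 was the highest library. Edem1 stood at 702.3, 1355 and 507.8 in KO, against 1287 and 851.1 in WT (-0.41, SE 0.43), with wide overlap. Of the sensors, Xbp1 stood at 9119, 6256 and 6663 in KO, against 7136 and 5973 in WT (0.15, SE 0.22), and Ern1 at 256.9, 169.4 and 222.8, against 259.9 and 131.1 (0.21, SE 0.46). Both overlapped. Among translocon genes Sec61a1 stood at 7736, 8827 and 7742 in KO, against 12257 and 8505 in WT (-0.34, SE 0.21), and Ssr1 at 14540, 15052 and 16462, against 19927 and 15786 (-0.21, SE 0.18). WT5 was the highest library for both genes.

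The stress genes of the stratum intermedium gave a median of 0.08, with 3 of 6 higher in KO. Leaving out WT5 gave 0.34 and leaving out WT10 gave -0.10. Atf4 stood at 2045, 2036 and 2534 in KO, against 2450 and 2234 in WT (-0.09, SE 0.20), and Ddit3 at 379.1, 374.7 and 285.5, against 336.5 and 383.8 (-0.06, SE 0.32). The groups of both genes overlapped in these libraries. Trib3 stood at 47.4, 36.4 and 31.2 in KO, against 28.9 and 4.61 in WT (1.58, SE 1.07), and Chac1 at 163.8, 120.7 and 19.6, against 97.6 and a listed 0 (2.91, SE 1.94). WT10 was the lowest library for both, and without it Chac1 was at -0.40. Asns stood at 1168, 2025 and 1421 in KO, against 1546 and 1795 in WT (-0.15, SE 0.28).

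Amelx in stratum intermedium stood at 117586, 73983 and 16813 in KO1, KO3 and KO9, against 166208 and 74814 in WT5 and WT10. The highest library was WT5, a different library than in ameloblasts, and 11 of 15 chaperones were highest in it, as were 20% of all genes. In 10 of 15 the KO libraries followed Amelx, against 19.4%, and in 13 of 15 WT5 was above WT10, against 51.6%. KO9, with the least Amelx, was lowest in 5 of 15, against 16.6%. On a common library total 5 of 15 were highest in WT5, against 13.2% of all genes, and 7 of 15 followed the KO order, against 18.1%. WT5 also held the most osteoclast markers, 0.919%, and odontoblast and pulp markers, 6.07%, of the stratum intermedium libraries. None of the 6 stress genes was highest in WT5, while 4 of 6 followed the KO order.

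The difference between the layers in the KO effect was tested within prefixes, on the log2 value in ameloblasts minus that in stratum intermedium. Of 15 chaperones 14 were above 0, meaning a KO minus WT difference that was more positive in ameloblasts, with a median of 0.50 against 0.01 over all 15567 genes, of which 50.4% were above 0 and 49.6% below. With limma 0 members and 0 genes (0%) had an adjusted p under 0.05, with a smallest adjusted p of 0.836. At an unadjusted p under 0.05 there were 2 members, both above 0, against 3.12% of all genes above and 2.03% below. These were Ssr1, at 0.86 (SE 0.26, unadjusted p = 0.0128 and adjusted p = 0.836 in limma), and Canx, at 0.72 (SE 0.26, unadjusted p = 0.0275 and adjusted p = 0.836 in limma). Pdia4 came next, at 0.90 (SE 0.39). Of 6 stress genes 5 were below 0, with a median of -0.40. The chaperone median was 0.26 without KO1, 0.83 without KO9, 0.21 without WT5 and 0.80 without WT10, and 0.10 with sex as a covariate. The stress median was -0.60 without KO9, -0.61 without WT5 and -0.24 without WT10, and -0.22 with sex as a covariate.

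Ameloblast and stratum intermedium levels were set side by side within each prefix, as the share of the library total, because the tables were normalized separately. In all 5 prefixes, 7 of 15 chaperones took a larger share of the ameloblast library than of the stratum intermedium library, and 11 of all 35 members did, against 5.74% of 15567 genes. The 7 were P4hb, Calr, Dnajb9, Dnajb11, Sdf2l1, Creld2 and Manf. The sensors Xbp1, Ern1 and Eif2ak3 and the translocon gene Ssr2 completed the 11, and 0 of 6 stress genes were among them. The median log2 ratio of the shares was 0.36 over the chaperones, 0.69 over the sensors, 0.46 over the translocon genes, -0.05 over the degradation genes and -0.05 over the stress genes, against -0.24 over all genes.

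Manf took 876, 560 and 307 parts per 1000000 in ameloblasts of KO1, KO3 and KO9 and 437 and 448 in WT5 and WT10, against 250, 232 and 190 and 284 and 219 in stratum intermedium of the same prefixes. It was the higher share in ameloblasts throughout, with log2 ratios of 0.62 to 1.81. Ern1 took 17 to 28.1 parts in ameloblasts, against 6.24 to 11.7 in stratum intermedium, with no overlap between the layers and a median log2 ratio of 1.26. Hspa5 was higher in ameloblasts in 4 of 5 prefixes, with ratios of 0.92, 0.71 and 0.29 in KO1, KO3 and KO9 and of -0.26 and 0.30 in WT5 and WT10. Among the chaperones WT5 was the exception for Hspa5 as for Hsp90b1, Pdia3, Pdia4 and Dnajc3, and its Amelx ratio, 1.56, was also the smallest of the 5, which otherwise ran from 3.18 to 4.49. Herpud1 was the single member with a smaller share in ameloblasts in all 5 prefixes, with ratios of -0.79 to -0.27, as were 20.1% of all genes. Asns was higher in ameloblasts in 4 of 5 prefixes with a median of 0.91, and Ddit3 lower in 4 of 5 with a median of -0.34.

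**Figure D4:**
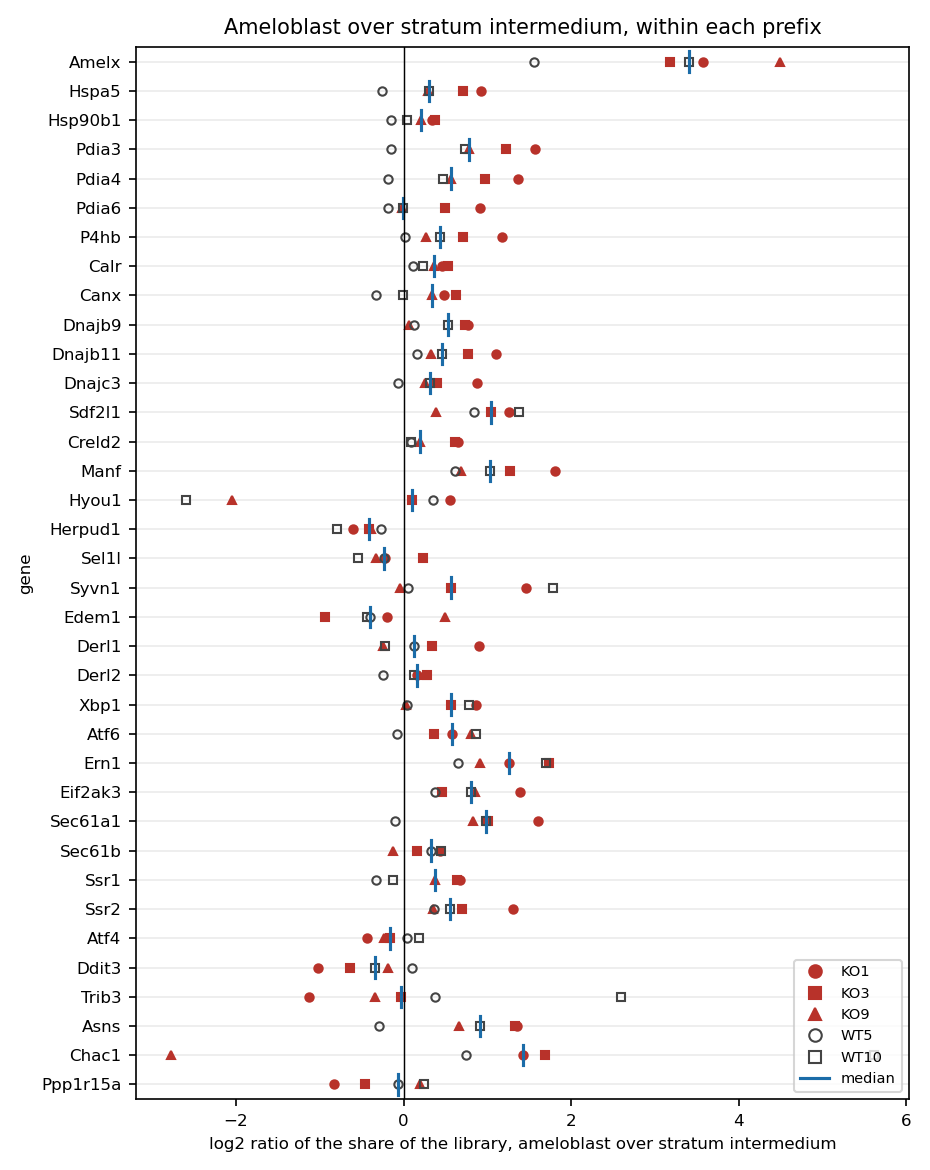
Log2 ratio of the share of the library, ameloblast over stratum intermedium, for each member in both tables and for Amelx; each marker is a prefix (filled red for KO, open grey for WT) and the blue line is the median of the 5. P4hb, Calr, Dnajb9, Dnajb11, Sdf2l1, Creld2 and Manf lie above 0 in every prefix, Herpud1 lies below 0 in every prefix, and WT5 has the smallest Amelx ratio, 1.56. Chac1 in WT10 (5.61) was listed at 0 in stratum intermedium.

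Other genes of the pathway were read from lists written from textbook knowledge, and 0 passed in either layer or between layers. Their counts of genes higher in KO ameloblasts stand against 53% of all genes. Of 26 other folding genes 24 averaged higher, with a median log2 difference of 0.21. Among them were Tmx1, a membrane-bound thioredoxin, at 6164, 5300 and 4841 in KO, against 3200 and 3941 in WT (0.61, SE 0.23), and Calu, the calcium-binding protein calumenin, at 24119, 18352 and 16006, against 11880 and 14441 (0.55, SE 0.26). In both, every KO library was above both WT libraries, as in 3 of the 26 in all, against 9.09% of all genes. Of 29 other genes of protein entry and N-glycosylation 23 averaged higher, with a median of 0.22, and in 8 of them the KO libraries all lay above both WT libraries, against 9.09% of all genes. Spcs3, a signal peptidase subunit, stood at 6186, 4667 and 4870 in KO, against 3074 and 3209 in WT (0.73, SE 0.22), and Stt3a, a catalytic subunit of the oligosaccharyltransferase, at 23124, 13679 and 11015, against 7231 and 9508 (0.87, SE 0.35). Of 26 genes of ER to Golgi transport 22 averaged higher, with a median of 0.21. In that list the COPII coat genes Sec23a and Sec23b differed by 0.61 (SE 0.23) and 0.70 (SE 0.43).

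Other degradation genes were higher in 13 of 19 cases with a median of 0.12, and those of smallest p were Faf2 (0.46, SE 0.27) and Edem2 (0.57, SE 0.39). Other regulators of the response were higher in 15 of 19 with a median of 0.23, among them the haem-regulated eIF2alpha kinase gene Eif2ak1 (0.46, SE 0.25) and the deubiquitinase gene Yod1 (0.38, SE 0.28). Other targets of ATF4 stood near the level of all genes, with 14 of 25 higher and a median of 0.03. In that list Atf3, a stress-induced transcription factor, stood at 170.9, 143.5 and 137.1 in KO, against 216.2 and 287.8 in WT (-0.73, SE 0.38), and Cars, a tRNA synthetase gene, differed by 0.70 (SE 0.46). Every KO library lay below both WT libraries for Atf3, and in 2 of the 25 genes of that list in all, against 9.26% of all genes.

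In stratum intermedium the same lists had medians of 0.07 for folding, -0.01 for degradation, -0.01 for entry, 0.03 for transport, -0.19 for regulators and 0.10 for targets of ATF4. Txndc5, a disulfide isomerase, stood at 5688, 5564 and 4832 in KO, against 4416 and 3880 in WT (0.37, SE 0.18), with no overlap. Every KO library lay above both WT libraries in 3 of the 26 folding genes, against 7.76% of all genes. Cnpy2 differed by 0.25 (SE 0.20). Stub1, a cytosolic ubiquitin ligase, differed by 0.35 (SE 0.19) and Herpud2 by 0.41 (SE 0.31). Srpr, a subunit of the signal recognition particle receptor, was at -0.30 (SE 0.19) and Tram1, a translocon-associated membrane protein, at 0.27 (SE 0.18). Kdelr1, which returns escaped chaperones to the ER, was at 0.35 (SE 0.23) and Sec16a, of ER exit sites, at -0.59 (SE 0.40). Eif2ak2, the double-stranded RNA kinase PKR, stood at 448.0, 721.5 and 694.9 in KO, against 902.3 and 1243 in WT (-0.80, SE 0.31), and Traf2, an adaptor of IRE1, differed by -0.70 (SE 0.32). Both were lower in every KO library than in both WT libraries, as were 5 of the 19 regulators in all, against 7.44% of all genes. Fgf21, a hormone gene induced by ATF4, stood at 122.0, 83.3 and 51.5 in KO, against 13.1 and 28.3 in WT (2.01, SE 0.78). Cth, of cysteine synthesis, stood at 95.9, 67.4 and 65.3, against 43.3 and 1.71 (2.79, SE 1.24). Every KO library was above both WT libraries in these genes, which were 2 of 26 in the list, against 7.76% of all genes.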

How the data were processed

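The signal values were deposited by the authors as normalized counts per gene, in a table for each layer whose name gives DESeq2 and says that outliers were left out. The submitters' processing notes name GRCm38, STAR 2.5.2b, Picard 2.8.1, FastQC, featureCounts and DESeq, without settings. Each gene listed reached 10 in 3 or more libraries of its table, so a gene could be listed through KO alone but not through WT alone. Of the low values 47.8% to 65.4% lay within 0.1 of whole steps, so reads were not recovered and no count test was made. Columns were matched by library name, with 0 left unused.

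Each layer was fitted with limma 3.58.1 (R 4.3.3, trend, two-sided) on log2(value + 1), keeping genes whose mean was 10 or more, with Benjamini-Hochberg adjustment over all genes and a threshold of 0.05. Differences are KO minus WT with limma's standard errors. Library values were given for widely known members, for the 2 members of each role class with the smallest p in a layer, the 3 with the smallest p between layers, and the 2 genes with the smallest p of each other list. Creld2, Manf, Derl1 and Dnajc3 were added after their values were seen. The members and lists were chosen with earlier results of these data known. Annotation was GENCODE M21 and promoters came from RefSeq. The fits were run on simulated data with planted changes larger than the chaperone differences here, so that run says nothing of power at their sizes. Figures were made with matplotlib 3.10.9.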

Additional observations from a re-analysis of the deposited data

How the results depend on the processing

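No member passed an adjusted p of 0.05 or 0.1 in either layer, or between layers, under any alternative run, so the counts of calls did not depend on the choices. Under other pseudocounts, filters, scalings, robust variance and library weights, the medians of the role classes kept their sign in ameloblasts and between layers, and moved by over 1.5 times only with the filter on a mean of 50, to 0.18 for the degradation genes and -0.15 for the stress genes of ameloblasts. In stratum intermedium they lay between -0.13 and 0.12 under these settings, and that of the stress genes turned to -0.06 with the same filter. Leaving out libraries and the covariates moved them more. With sex as a covariate the ameloblast medians were -0.05 for the chaperones, -0.13 for the translocon genes and 0.11 for the sensors. Over the fits that leave out a library they ran in ameloblasts from 0.20 to 0.83 for the chaperones, 0.11 to 0.40 for the degradation genes, 0.10 to 0.52 for the sensors, 0.11 to 0.68 for the translocon genes and -0.43 to -0.20 for the stress genes. Between layers those of the sensors ran from -0.36 to 0.81 and those of the translocon genes from 0.12 to 0.88. In stratum intermedium the chaperones ran from -0.27 to 0.11, the sensors from -0.37 to 0.41, the translocon genes from -0.31 to 0.08 and the stress genes from -0.10 to 0.34, with 0.35 for the stress genes under the Amelx covariate. Of the counts against Amelx, 2 moved on a common library total, to 1 stress gene highest as Amelx in ameloblasts and 5 chaperones in stratum intermedium. Over all alternatives 38 values of single genes turned direction. The alternatives are not all separate, since the library group and replicate blocks repeat the differences of fits that leave out a library. The cause was not tested.

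With the replicate number of the titles as a block, which the groups share for 2 numbers only, the chaperone median was 0.53 in ameloblasts and 0.00 in stratum intermedium, and the stress median -0.43 and 0.25. The third number occurs in KO alone, so the block repeats the differences of the fit without KO3 in ameloblasts and without KO9 in stratum intermedium. The block changed no call. Deviations of same-numbered ameloblast libraries correlated at 0.0862 and -0.116 and those of stratum intermedium at -0.133 and -0.186. The deviations of WT5 and WT10 mirror each other, so these values cannot settle whether the numbers pair the samples. WT5 with KO3, of other replicate numbers but the same library group number, gave 0.273 in ameloblasts and 0.186 in stratum intermedium. Under the replicate block Chac1 turned to -1.04 in ameloblasts and Ddit3 to 0.07 in stratum intermedium.

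Single genes that turned direction were as follows in ameloblasts. Chac1 was at -0.02 with a pseudocount of 0.5, at -1.25 with the library group as a block, at -0.54 with the Amelx covariate and at -4.74 with the sex covariate. The library group block, which repeats the differences of the fit without KO1, also gave -0.14 for Xbp1 and -0.32 for Amelx. The sex covariate also gave -0.10 for Hspa5, -0.37 for Xbp1, -0.00 for Ern1, -0.03 for Sec61a1 and -0.74 for Amelx, which stood at -0.00 when it was its own covariate. Leaving out libraries gave -0.14 to 0.69 for Xbp1, -1.25 to 2.46 for Chac1, -0.32 to 0.75 for Amelx and -0.13 to 1.57 for Asns. In stratum intermedium the library group block gave -0.01 for Hsp90b1, -0.02 for Xbp1 and 0.03 for Asns, the Amelx covariate 0.06 for Ddit3 and 0.00 for Amelx, and the sex covariate -0.14 for Hsp90b1, 0.12 for Atf4 and 0.14 for Sel1l. Leaving out libraries gave -0.21 to 0.35 for Hsp90b1, -0.02 to 0.28 for Xbp1, -0.37 to 0.03 for Asns, -0.16 to 0.07 for Ddit3, -0.40 to 6.22 for Chac1 and -0.28 to 0.70 for Ern1. Without read counts the precision of low genes such as Derl3, Trib3 and Chac1 is limited by a depth that is unknown, and 3 against 2 libraries limit all others.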

Other observations

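Hyou1, the ER chaperone GRP170, stood apart from the other chaperones by its low listed level, and was singled out after its values were seen. Whether read coverage or annotation lowered its count was not checked, so the level may not be that of the transcript. Per length it was at 1.72 parts per 1000000 in ameloblasts and 2.29 in stratum intermedium (medians over 5 libraries), while the next lowest chaperone, Dnajb9, was at 81.4 in ameloblasts and Sdf2l1 at 56.6 in stratum intermedium. In normalized counts it was 253.9, 115.1 and 33.1 in KO ameloblasts, against 161.9 and 29.5 in WT, so it was lowest in KO9 and WT10. Both of these libraries carry the library group number 2, as KO9 and WT10 do in stratum intermedium, where Hyou1 was 136.6 and 158.8 in them and 104.0 to 141.6 in the other 3. Chac1 was also lowest in KO9 and WT10, at 2.2 and 46.3 in ameloblasts and at 19.6 and a listed 0 in stratum intermedium. Of all listed genes, 706 and 420 were at 0 in WT10 and KO9 ameloblasts, against 224, 41 and 33 in KO1, KO3 and WT5. In stratum intermedium 854 were at 0 in WT10, 633 in KO1, 210 in KO9, 109 in KO3 and 36 in WT5. The part of such zeros in the low values of Hyou1 and Chac1 was not tested.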
